A study of Procambarus clarkii with 12 samples.

Results

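The transcripts described here are 113 gene clusters of the crayfish hepatopancreas whose level was highest at 2 mg/L cadmium, the lowest of 3 concentrations tested. A gene cluster is a group of assembled RNA sequences that the deposited tables count as one gene, and the tables list 176325 of them. Members were chosen by their measured values. The counts-per-million value (CPM), the estimated count of a cluster divided by the sum over its library and scaled up, had to average from 5 to under 1000 over the 12 libraries. The lowest of the 3 libraries at 2 mg/L had to exceed the highest of the other 9, and the mean log2(CPM + 1) at 2 mg/L had to exceed that of the other 9 by at least 1. Clusters whose 3 control or 3 libraries at 10 mg/L all lay on one side of the other 9 were left out. High values at 2 mg/L are therefore how the members were selected, and they are given as a description with no test.

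Male red swamp crayfish (*Procambarus clarkii*) were the source of the hepatopancreas RNA that was sequenced. They were exposed for 72 h to no cadmium (control, 0 mg/L) or to 2, 5 or 10 mg/L cadmium, and each group had 3 libraries. Nothing in the labels tells if 1 animal or several went into a library, or if libraries of a group stem from separate animals, so p-values measure only the spread between these samples. The deposited tables do not pair cluster identifiers with gene names, so no gene, pathway or cell type marker could be matched, the tissue could not be checked against its markers, and 4 identifiers are printed.

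The hepatopancreas is the digestive gland of crustaceans. It secretes digestive enzymes, takes up nutrients, stores lipid and glycogen, and is a main site where metals taken up by the animal are bound and stored. Cadmium is a toxic, non-essential metal. In animal cells it is bound by metallothioneins, small cysteine-rich proteins, and by glutathione, and it can cause oxidative stress. A response that is larger at a low concentration than at higher ones is called non-monotonic, and the clusters described here have that shape by construction.

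Total estimated counts per library were 19490723 to 21160462 for controls, 15835744 to 17480371 for 2 mg/L, 19011151 to 21653867 for 5 mg/L and 16083833 to 16880989 for 10 mg/L. The libraries at 2 mg/L were thus less deep than every control and 5 mg/L library. With every library thinned to the smallest total, the rule chose 111 clusters, of which 108 were members. Without 10 mg/L replicate 3, which had the lowest share of the 12 libraries when each was held out in turn, the rule chose 111 clusters, 103 of them members. Applied to FPKM in place of CPM (the deposited level scaled by length as well as by depth), it chose 147 clusters, and 75 of the members were among them. The lower limit of 5 was then a limit in FPKM, which a long member could miss while still highest at 2 mg/L. An example of 9130 bases had mean FPKM of 1.70 in the controls and 3.25 at 2 mg/L. It had 1.94 at 5 mg/L and 1.27 at 10 mg/L. How many members were lost in this way was not tested, so the 75 do not measure how many kept the pattern. In bulk tissue, fewer cells of a type and less RNA per cell cannot be told apart.

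Of the 12004 clusters in the CPM range, 214 had all 3 libraries at 2 mg/L above the other 9. The log2 difference was under 1 in 99 of these, and 2 more were left out because their 3 controls lay below every other library, which leaves the 113 members, 0.941% of the range. The difference was 1.01 for the member just inside the limit and 0.989 for the cluster just outside it. The mean was 5.21 CPM for the least abundant member, and 4.83 CPM for the most abundant cluster that met every other condition below 5 CPM. A further 173 clusters below 5 CPM and 0 at 1000 CPM or more met the other conditions. The same rule without the last clause chose 115 clusters at 2 mg/L, and gave 117 when applied to the controls, 33 for 5 mg/L and 62 for 10 mg/L. The reversed rule, for clusters lowest in a group, gave 62 clusters for 2 mg/L, 85 for the controls, 26 for 5 mg/L and 158 for 10 mg/L.

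The members covered a wide range of levels. By mean CPM over all libraries 13 members lay at 100 to 1000 CPM, 64 at 10 to 100 CPM and 36 at 5 to 10 CPM. Together they took 1.06%, 0.973% and 1.01% of the counts in the 3 libraries at 2 mg/L. In the other 9 libraries they took 0.230% to 0.464%. The mean share was 0.381% ± 0.104 for controls, then 1.01% ± 0.0436 for 2 mg/L, 0.351% ± 0.0517 for 5 mg/L and 0.297% ± 0.0580 for 10 mg/L (SD, n = 3 each). By construction 2 mg/L stands above the rest. Among the other 3 groups the ranges of the summed level overlapped, at 2638 to 4638 CPM in the controls, 2915 to 3822 CPM at 5 mg/L and 2300 to 3318 CPM at 10 mg/L.

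**Figure D1:**
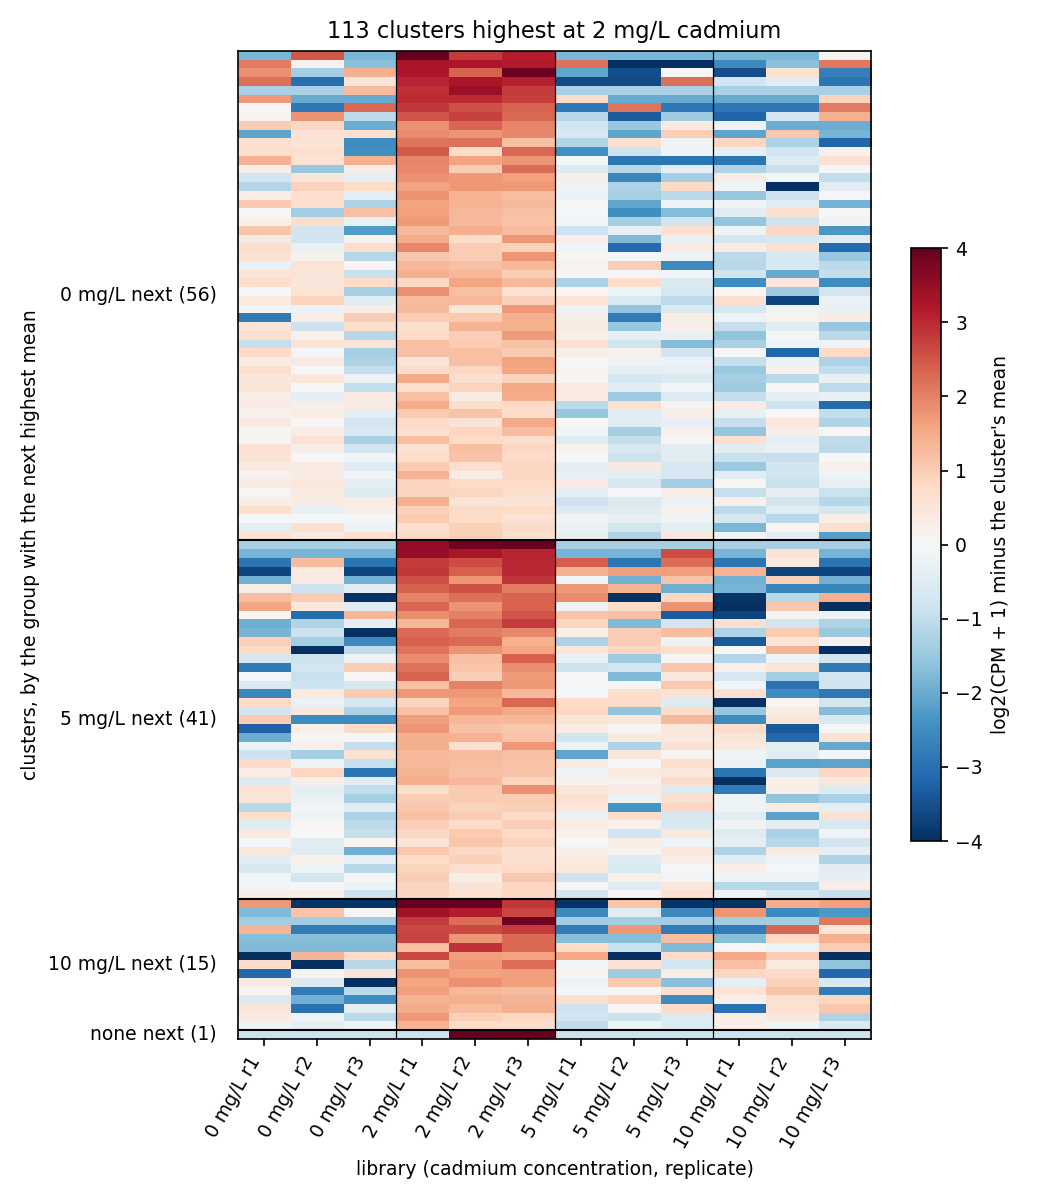
Level of each of the 113 members (rows) in each of the 12 libraries (columns, by cadmium concentration and replicate), as log2(CPM + 1) minus the mean of that cluster over all libraries; rows are grouped by the group with the next highest mean and, within it, run from the largest to the smallest log2 difference. The 3 columns of 2 mg/L are high in nearly all rows by the choice of members, the next highest mean was the controls' in 56 rows, and the single row at the bottom had counts at 2 mg/L only.

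The size of the difference varied among members. The median log2 difference between 2 mg/L and the other 9 libraries was 1.80. It was at least 2 in 46 members, at least 3 in 19 and at least 4 in 9. The mean CPM at 2 mg/L was a median of 3.02-fold that of the other 9 libraries, with a smallest value of 1.86-fold. The margin between single libraries was far narrower. The lowest library at 2 mg/L was a median of 1.21-fold the highest of the other 9, under 1.1-fold in 36 members and at least 2-fold in 6. Many members therefore had at least 1 library of another group at nearly the level seen at 2 mg/L.

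**Figure D2:**
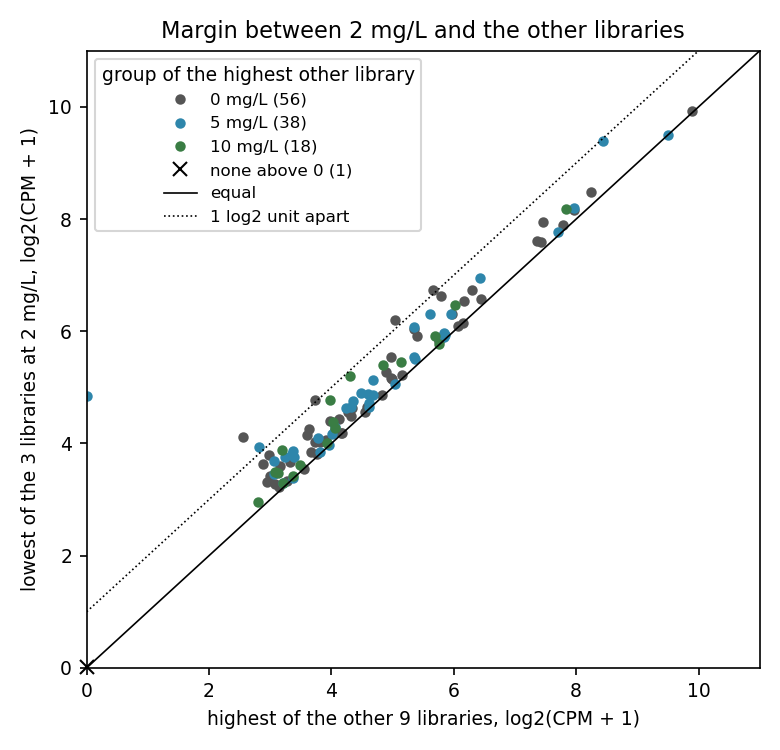
For each of the 113 members, the lowest of the 3 libraries at 2 mg/L (vertical axis) against the highest of the other 9 libraries (horizontal axis), both as log2(CPM + 1), coloured by the group of that highest library; the solid line marks equal levels and the dotted line a difference of 1 log2 unit. Most points lie close to the solid line, with a median ratio of 1.21, and the highest other library was a control in 56 members, a 5 mg/L library in 38 and a 10 mg/L library in 18.

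The most abundant member by CPM at 2 mg/L, Cluster-27942.67446, was also among those with the smallest difference. It had 972, 1176 and 1044 CPM at 2 mg/L, against 472, 952 and 531 CPM in the controls. It had 515, 369 and 460 CPM at 5 mg/L and 169, 640 and 939 CPM at 10 mg/L. Control replicate 2 and 10 mg/L replicate 3 came close to the lowest library at 2 mg/L, while the 5 mg/L libraries lay well below. The mean at 2 mg/L was 1.63-fold that of the controls, 2.37-fold that of 5 mg/L and 1.82-fold that of 10 mg/L. Scaled by length, it had 464 ± 44.2 FPKM at 2 mg/L, 284 ± 115 FPKM in the controls, 194 ± 31.8 FPKM at 5 mg/L and 251 ± 167 FPKM at 10 mg/L (SD, n = 3 each).

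Cluster-27942.64764 came second by CPM and had the higher level per length of these 2 members. It had 1049, 723 and 1064 CPM at 2 mg/L, against 619, 279 and 151 CPM in the controls. It had 184, 341 and 721 CPM at 5 mg/L, and 0.573, 438 and 8.66 CPM at 10 mg/L. The library of 5 mg/L replicate 3 was practically level with the lowest library at 2 mg/L. At 10 mg/L replicate 1 had almost none of this transcript, with 9.22 estimated counts, and replicate 3 was low, with 146. Per length this cluster had 1209 ± 250.2 FPKM at 2 mg/L, 447 ± 312 FPKM in the controls, 525 ± 356 FPKM at 5 mg/L and 183 ± 308 FPKM at 10 mg/L (SD, n = 3 each). At 10 mg/L the SD exceeded the mean.

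A few members were absent, or nearly so, from whole groups. At 0 counts in all 3 libraries of at least 1 group were 8 members: 6 in the controls, 4 at 5 mg/L and 3 at 10 mg/L, with some absent from more than 1 group. Of all clusters in the CPM range 0.975%, 1.05% and 1.08% had no counts in the same groups, and 1.86% had none at 2 mg/L. Members could reach the CPM limit through 2 mg/L alone, so absence from other groups is in part built in.

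Cluster-27942.82501 was the most abundant of these at 2 mg/L. It had 67.3, 23.8 and 30.6 CPM at 2 mg/L, and 0 counts in all 3 libraries at 5 mg/L. It had 19.1 CPM in control replicate 2, 2.87 CPM in 10 mg/L replicate 3 and 0 counts in the other 4 control and 10 mg/L libraries. The transcript was therefore also present in 1 control, close to the lowest 2 mg/L library. Against a floor of 3 counts over the 5 mg/L group, which covers counting error only, the mean at 2 mg/L was at least 832-fold higher.

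Cluster-27942.55536 came next and was nearly limited to 2 mg/L. It had 27.9, 36.1 and 54.9 CPM there, and 0 counts in every control and 10 mg/L library. At 5 mg/L it had 0.05 of an estimated count in replicate 2 and 0 in the others. Against a floor of 3 counts over each group the mean at 2 mg/L of 39.6 ± 13.8 CPM (SD, n = 3) lay at least 808-fold higher than in the controls, at least 813-fold higher than at 5 mg/L and at least 651-fold higher than at 10 mg/L. A floor allows that a transcript of very low level was missed in those groups. These folds describe the contrast by which the cluster was chosen.

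**Figure D3:**
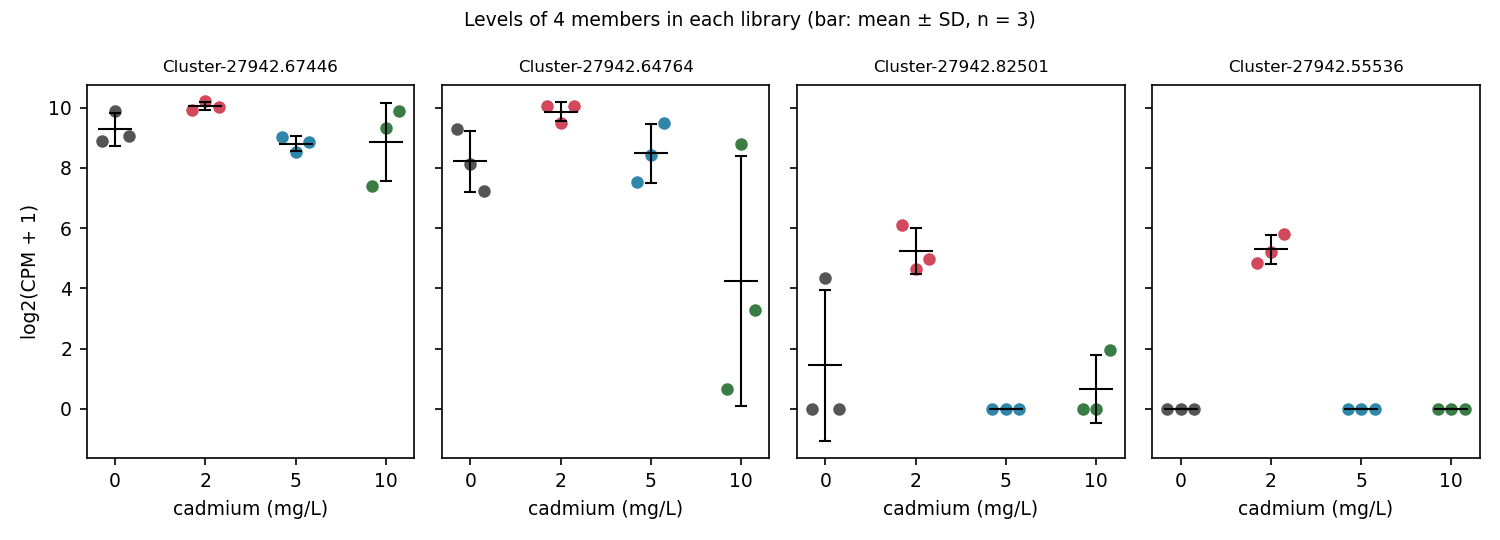
Levels of 4 members in the 12 libraries as log2(CPM + 1) (vertical axis) by cadmium concentration in mg/L (horizontal axis); points are libraries, bars the mean ± SD of 3. The 2 members on the left nearly touch other groups, at 972 CPM for the lowest library at 2 mg/L against 952 CPM in a control, and at 723 CPM against 721 CPM at 5 mg/L, while the rightmost had counts practically only at 2 mg/L.

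Other members, picked after their values were seen, differed in how the groups were spread. The third most abundant had 726, 709 and 667 CPM at 2 mg/L, and from 0.80 to 345 CPM in the other 9 libraries, with a median of 22.7 CPM. Its libraries at 2 mg/L agreed closely, whereas those of every other group were scattered. The fourth had 604, 705 and 106 CPM at 2 mg/L, at most 49.3 CPM elsewhere and 0 counts in 5 of the other 9 libraries, and with 6.08 the largest log2 difference of all members. The sixth had 544, 286 and 289 CPM at 2 mg/L, against nearly equal controls of 244, 246 and 250.0 CPM, a margin of 1.14-fold between the nearest libraries. The member with no counts outside 2 mg/L rested on replicates 2 and 3, with 34.7 and 38.8 CPM, since replicate 1 had 0.1 of an estimated count. In each of the other 112 members the lowest library at 2 mg/L had at least 5 CPM, and at least 108 estimated counts.

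Replicates at 2 mg/L were close together, in part because the rule requires the lowest of them to be high. The median coefficient of variation within the group was 20.3% over the members, against 33.8% over all clusters in the CPM range. In 61 members the highest and lowest libraries at 2 mg/L were within 1.5-fold, and in 5 they were over 3-fold apart. In the other groups, which the rule did not ask to be alike, the members' variation was larger than that over the range. Members could reach the CPM limit through their libraries at 2 mg/L while low elsewhere. An excess over the range, in variation or in libraries at 0 counts, is therefore in part built in. Among members with counts in the group, the median coefficient of variation was 57.7% in the controls, against 34.5% over the range. It was 56.0% against 40.1% at 5 mg/L, and 74.4% against 48.4% at 10 mg/L. At least 1 library at 0 counts occurred in 46 members, 40.7%, against 25.1% of all clusters in the range. The share was 21.4% of the clusters highest in the controls, 48.5% of those highest at 5 mg/L and 61.3% of those highest at 10 mg/L, so a share above that of the range was not particular to the members. Replicate 1 was the highest of the libraries at 2 mg/L in 47.8% of members, and likewise in 48.7% of all clusters in the range.

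Each library at 2 mg/L was left out in turn, the rule was applied to the other 11, and the left-out library was then read. That library had no part in the choice, but the 9 libraries it is set against did: the rule picked clusters in which they were low. The shares over all clusters in the range carry no such selection, so an excess over them is in part built in. With replicate 1 left out 189 clusters were chosen, and replicate 1 lay above all 9 libraries of the other groups in 101 of them, 53.4% (exact binomial 95% interval 46.1 to 60.7%). Over all clusters in the range it did so in 14.0%. With replicate 2 left out the share was 107 of 233, 45.9% (39.4 to 52.6%), against 8.95% in the range. With replicate 3 left out it was 105 of 228, 46.1% (39.5 to 52.8%), against 8.0%. In each case roughly as many chosen clusters failed as passed in the left-out replicate. These intervals treat clusters as independent, which they are not.

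The left-out library exceeded the mean of the other 9 by a median log2 difference of 1.24, 1.15 and 1.06 for replicates 1, 2 and 3, against 0.21, 0.02 and -0.02 over the range. It was higher than that mean in 162 of 189, 186 of 233 and 188 of 228 chosen clusters. The same exercise, without the last clause of the rule, gave shares of 47.3 to 53.4% for clusters highest in the controls and 29.7 to 35.1% for those highest at 5 mg/L. For those highest at 10 mg/L it gave 29.7%, 51.9% and 5.51%. Without that clause the shares at 2 mg/L were 51.8%, 45.8% and 44.7%. Differences between these shares were not tested. The low share at 10 mg/L belongs to replicate 3 of that group, where 1143 clusters were chosen on the other 11 libraries.

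**Figure D4:**
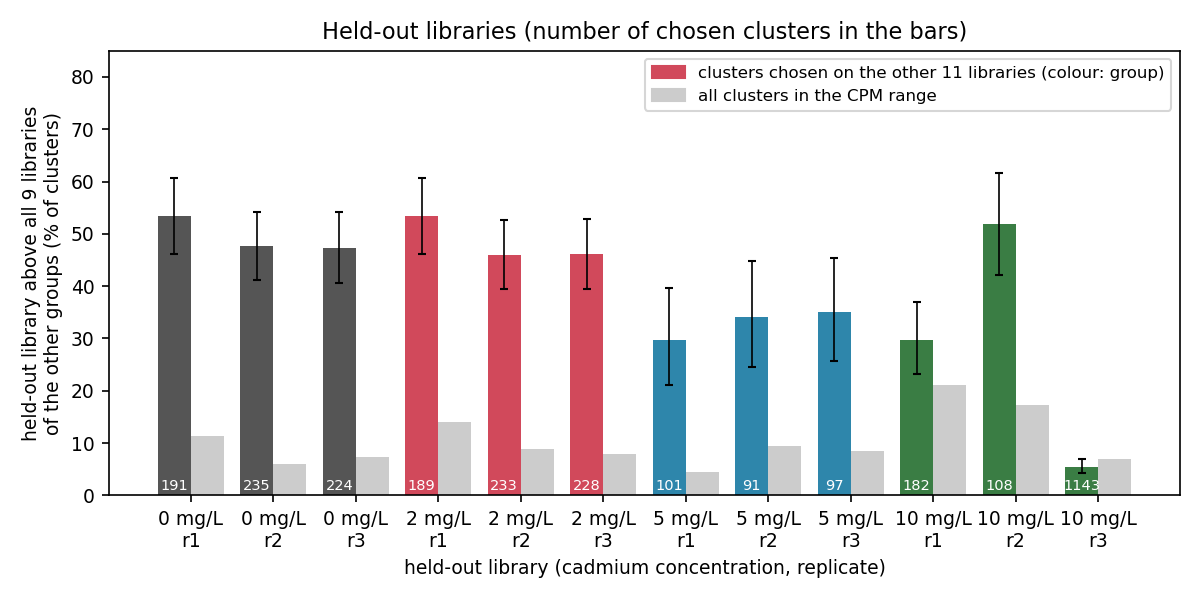
Share of clusters in which a held-out library lay above all 9 libraries of the other groups (vertical axis, percent), for each of the 12 libraries held out in turn (horizontal axis); coloured bars are clusters chosen by the rule on the other 11 libraries, with exact binomial 95% intervals and their number, and grey bars all clusters in the CPM range. At 2 mg/L the coloured bars reach 45.9 to 53.4% and the grey bars 8.0 to 14.0%. For the controls they reach 47.3 to 53.4% and 6.03 to 11.3%. The rule picked clusters low in the 9 libraries compared, so the gap to the grey bars is in part built in. The intervals treat clusters as independent, which they are not. The last clause of the rule was used for 2 mg/L only.

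A library of another group was also left out in turn. The 3 libraries at 2 mg/L it is set against were picked by the rule for being high, so a large share below them is mostly fixed by the choice and only the order of the libraries is described. The left-out library lay below all 3 libraries at 2 mg/L in 72.1% (5 mg/L replicate 3) to 96.4% (10 mg/L replicate 3) of the clusters chosen without it, against 23.1 to 40.6% of clusters in the range. The next lowest share was 82.9%, for control replicate 1.

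In the contrasts used for the choice, the number of members called depended on the tool. A total of 112 members passed the filter on low counts. In edgeR's quasi-likelihood test over all 12 libraries 0 members were called at an adjusted p under 0.05 at 2 mg/L against the controls, where 0.00875% of the 57151 clusters tested were called. Likewise 0 were called against 5 mg/L (background 0.0105%) and 0 against 10 mg/L (0.0122%). Unadjusted p was under 0.05, with the level higher at 2 mg/L, for 24 members against the controls, 41 against 5 mg/L and 50 against 10 mg/L. Over all clusters tested the shares were 2.59%, 2.17% and 5.04%. Without 2 mg/L replicate 3 the first 2 counts were 14 and 25, against 1354 and 1226 of the 69389 clusters then tested. DESeq2 called 10, 17 and 34 members as higher, against 0.919%, 0.730% and 2.31% of all clusters tested. Limma-voom called 1 member in each of the 3 contrasts, Cluster-27942.55536, where 0.00525%, 0.00700% and 0.00175% of all clusters were called higher. Limma on log2(FPKM + 1) called 1, 2 and 2 members, against 0.0245%, 0.0315% and 0.0402%. Since the members were chosen by these contrasts, nothing is read from the counts.

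The members were next compared among the other 3 groups, which the rule constrained only by keeping all 9 libraries below those at 2 mg/L and by its last clause. A ceiling of this kind removes clusters with any high library, and over the CPM range the highest of the other 9 libraries was most often one of 10 mg/L (41.6%, against 28.6% for the controls and 29.8% for 5 mg/L). The values are therefore descriptive. Among members the group with the next highest mean was the controls in 56, 5 mg/L in 41 and 10 mg/L in 15. Over the range the highest of the 3 means was the controls' in 30.9% of clusters, that of 5 mg/L in 28.5% and that of 10 mg/L in 40.6%. The lowest of the 3 means was that of 10 mg/L in 59 of the 109 members with a single lowest group, 54.1%, against 33.4% of clusters in the range. It was that of the controls in 22.9% of members, against 38.7% of the range. The median over members of the group mean was 11.7 CPM in the controls, 10.2 CPM at 5 mg/L and 7.69 CPM at 10 mg/L.

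At 5 mg/L against the controls, 47 members had a higher and 63 a lower fitted level and 2 had a fitted change of 0, with a median log2 fold change of -0.15, against 0.04 over all clusters tested. That median was -0.06, -0.05 and -0.27 without control replicates 1, 2 and 3, -0.22 without 5 mg/L replicate 1, and -0.01 by limma on log2(FPKM + 1). By edgeR 0 members were called (background 0%). Unadjusted p was under 0.05 for 6, of which 3 were higher and 3 lower, where the shares over all clusters were 2.82% and 2.69%. DESeq2 called 2 as higher and 2 as lower, against 0.908% and 0.850%. The 5 mg/L libraries lay wholly above the controls in 3 members and wholly below in 5, against 6.57% and 5.21% of all clusters tested. Among 112 members the counts by edgeR and of wholly separate libraries are near or below the background shares. The DESeq2 counts lie above theirs but rest on 2 members in each direction, with fitted log2 fold changes from -23.7 to 20.

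At 10 mg/L against the controls, 27 members had a higher and 84 a lower fitted level. The median log2 fold change was -0.49, with a middle range of -0.89 to 0.00, against 0.00 over all clusters tested. By edgeR 0 members were called (background 0.00700%, smallest adjusted p among members 0.319). Unadjusted p was under 0.05 for 3 higher and 10 lower members, against 5.63% and 5.72% of all clusters. The count of lower members was 4 of 113 without control replicate 1 and 5 of 113 without control replicate 2. Over all clusters it was 2714 of 65312 and 2706 of 65887. The count of lower members was 14 without control replicate 3 and 13 without 10 mg/L replicate 3. Over all clusters it was then 3082 of 65968 and 5098 of 69180. DESeq2 called 3 as higher and 3 as lower, against 2.87% and 2.80%. The 10 mg/L libraries lay wholly above the controls in 2 members and wholly below in 8, against 6.60% and 9.32%. The shift of the median was thus spread over many members and was called in none by edgeR.

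At 10 against 5 mg/L, 39 members had a higher and 71 a lower fitted level, with a median log2 fold change of -0.26, against -0.02 over all clusters tested. That median was -0.12 without 10 mg/L replicate 1, -0.48 without 10 mg/L replicate 3, -0.40 without 5 mg/L replicate 2 and -0.46 by limma-voom. By edgeR 0 members were called (background 0.0105%). Unadjusted p was under 0.05 for 1 higher and 6 lower members, against 3.69% and 4.62% of all clusters. DESeq2 called 2 as higher and 1 as lower, against 1.45% and 1.82%. The 10 mg/L libraries lay wholly below those of 5 mg/L in 7 members and wholly above in 0, against 8.35% and 3.73%. The comparisons of 5 and of 10 mg/L with the controls share the control libraries.

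The values of 2 members, chosen after they were seen, are given in full. The member with the smallest p at 10 mg/L against the controls (unadjusted p = 0.00401, adjusted p = 0.319 by edgeR) had 2.51, 1.96 and 5.95 CPM at 10 mg/L, against 0 counts in all 3 controls. It had 6.80, 24.3 and 15.8 CPM at 2 mg/L and 4.63, 0.836 and 0 CPM at 5 mg/L, so it was present at every cadmium concentration and in no control. The member with the smallest p among those lower at 10 mg/L (unadjusted p = 0.0129, adjusted p = 0.372 by edgeR) had 4.29, 6.80 and 5.73 CPM at 10 mg/L, against 16.8, 7.65 and 12.3 CPM in the controls, and the groups did not overlap.

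What members share beyond their level was read from the tables. The length that follows from the ratio of count to FPKM was a median of 1839 bases, with a middle range of 853 to 3156 bases, against 1828 and 853 to 3130 bases over the CPM range. The lengths of members were thus close to those of the range. All 113 carried the first identifier number 27942, as did 99.2% of clusters in the range.

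The estimated counts of members were less often whole numbers. Estimated counts are fractional where a counting program divides reads among similar sequences. Of counts of at least 50, 10.3% were whole exactly as deposited in members, against 30.6% over the range. The share was 32.0% for clusters highest in the controls, 16.5% for those highest at 5 mg/L and 16.8% for those highest at 10 mg/L. The level of a cluster that shares reads with a near-identical one is uncertain, and its part in the pattern at 2 mg/L was not tested.

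Members did not vary together as a single block outside 2 mg/L. Over the 9 other libraries, which fall into 3 groups and in which all clusters share library and depth, the median Pearson correlation of log2(CPM + 1) over the 6216 pairs of members was 0.08 (description only), against 0.03 over all pairs of clusters in the range. It was at least 0.9 in 24 pairs, 0.386% of them, against 0.269% of all pairs in the range. Of those 24 pairs 17 had the same highest library at 2 mg/L, 70.8%, against 36.1% of all pairs of members. The libraries at 2 mg/L had no part in the correlation. The 24 pairs share members, 33 in all, so they are not independent. The share among equally correlated pairs of the range is not given, so nothing particular to the members is read from it.

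Linking members by a correlation of at least 0.9, a step chosen after the values were seen, gave 5 sets of 3 to 6 members, 19 in all. The largest held 6 members, with correlations of 0.80 to 0.99 over the 15 pairs. Its most abundant member had 237, 273 and 458 CPM at 2 mg/L, against 219, 156 and 63.1 CPM in the controls. It had 159, 111 and 114 CPM at 5 mg/L and 45.1, 134 and 65.6 CPM at 10 mg/L. In all 6 members replicate 3 was the highest at 2 mg/L, at mean levels there from 12.8 to 323 CPM. Control replicate 3 was the lowest control in all 6, which follows largely from linking members by the libraries outside 2 mg/L. Their implied lengths ran from 193 to 1123 bases.

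A set of 3 members, of 113 to 364 bases, had another profile. Its most abundant member had 62.0, 35.1 and 85.7 CPM at 2 mg/L, against 23.1, 20.8 and 30.6 CPM in the controls. It had 21.6, 7.56 and 16.2 CPM at 5 mg/L and 15.1, 23.1 and 20.0 CPM at 10 mg/L. In all 3, replicate 2 was the lowest at 2 mg/L and replicate 2 the lowest at 5 mg/L, the latter largely through the linking. Another set, of 4 members, had replicate 1 highest at 2 mg/L in 3 of them, with 24.9, 18.6 and 16.7 CPM at 2 mg/L in its most abundant member against 8.03, 11.1 and 4.82 CPM in the controls.

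**Figure D5:**
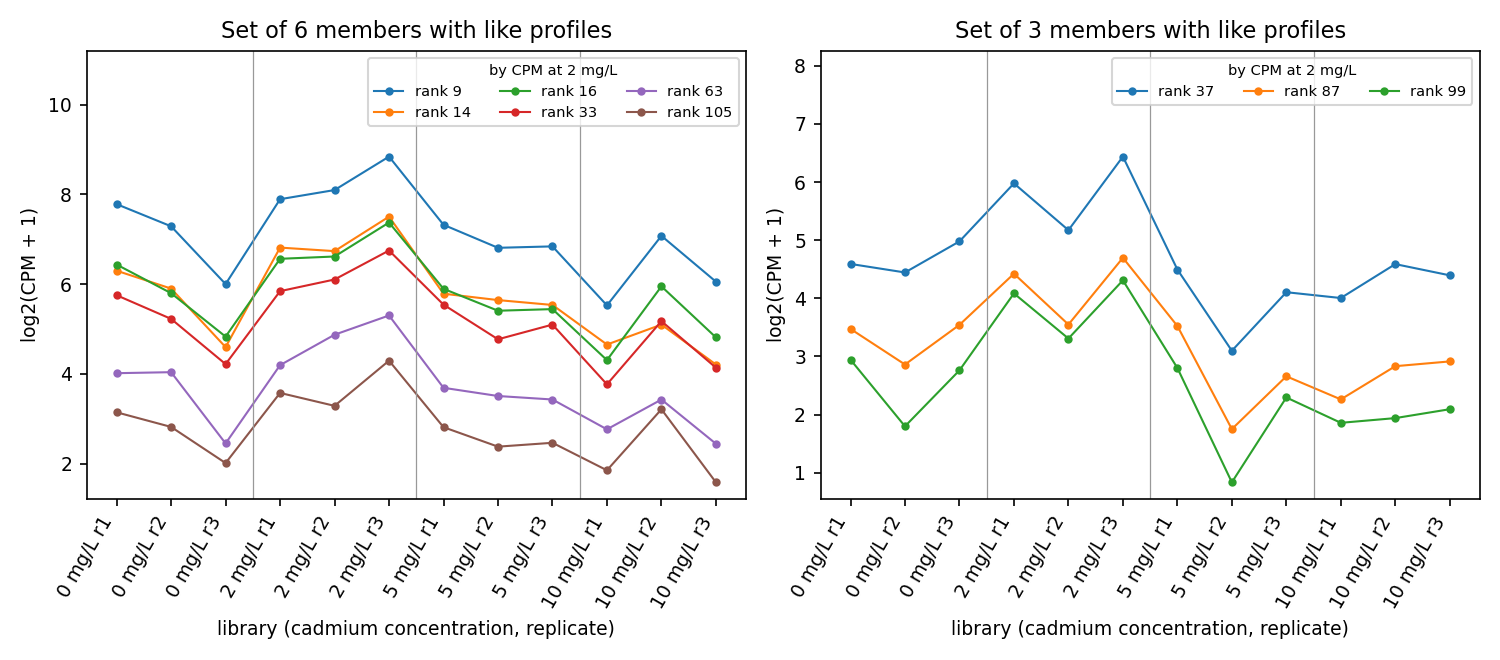
Levels of the members of 2 linked sets in the 12 libraries (horizontal axis, by cadmium concentration and replicate) as log2(CPM + 1) (vertical axis); lines are members, named by their rank of mean CPM at 2 mg/L. In the left set of 6 the lines run nearly parallel with a peak at 2 mg/L replicate 3, and in the right set of 3 replicate 2 is the low point at both 2 and 5 mg/L. Outside 2 mg/L the likeness of the lines follows from the linking.

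Members with neighbouring identifiers, whose second numbers differ by at most 10, formed 9 pairs of 18 members. Their correlation over the 9 other libraries was a median of 0.69, from -0.75 to 0.99, and at least 0.9 in 3 pairs. Over the 22542 such pairs in the CPM range the median was 0.06, and 2.21% reached 0.9. Both clusters of a member pair had to meet the rule, and the pairs of the range carry no such condition. An excess over the range can therefore be in part built in. In 7 of the 9 member pairs the same library was highest at 2 mg/L, against 36.1% of all pairs of members. Whether such neighbours are pieces of 1 gene is not recorded in the deposited tables. Cluster-27942.55536 belonged to the pair with the correlation of -0.75, where its partner had counts in every library and its own values outside 2 mg/L were practically 0, so that correlation rests on 0.05 of a count.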

How the data were processed

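RNA-seq of the hepatopancreas was deposited as 1 table per library, with an estimated count and an FPKM value per gene cluster, per the file headers. Per the labels, Tri Reagent was used for extraction and the libraries were of the usual Illumina kind. For the assembler, aligner, counting tool and build, the sources used here give nothing. Members and lists were chosen with earlier results of these data known. Groups follow the labels.

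CPM was computed from the estimated counts deposited by the authors. For tests these were rounded to whole numbers, and clusters were kept by filterByExpr of edgeR (minimum count 10, minimum total 15), which left 57151. The main test was the quasi-likelihood test of edgeR 4.0.16 in R 4.3.3 with TMM scaling, fitted to all 12 libraries, with Benjamini-Hochberg adjustment over all clusters tested (common biological coefficient of variation 1.12). The fit was tested on simulated data. It recovered the changes put in at a low spread between replicates. At the spread of these libraries it missed many of them, among them all of the smallest size put in. A lack of calls by edgeR therefore does not show that levels were equal. DESeq2 1.42.0 and limma 3.58.1 were alternatives, the second also on log2(FPKM + 1). CPM values used a pseudocount of 1 on the log scale, and correlations used the same values. Tables were made with pandas 2.3.3 and numpy 2.4.6 in Python 3.11.15, intervals with scipy 1.17.1 and figures with matplotlib 3.10.9.

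The 4 printed identifiers are the 2 members with the highest mean CPM at 2 mg/L and, among members at 0 counts in a whole group, the 2 with the highest mean CPM there. Total counts per library ran from 15835744 to 21653867. Binomial intervals treat clusters as independent draws and do not cover the spread between libraries. Floors cover counting error only. The alternatives were other scalings, limits, pseudocounts, filters and tools, a replicate block and leaving out each library.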

Additional observations from a re-analysis of the deposited data

How the results depend on the processing

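The number of clusters chosen was 225 with a mean CPM of at least 1 and 46 with a log2 difference of at least 2. Leaving out 1 library in turn gave 111 to 233 clusters, with 189, 233 and 228 without 2 mg/L replicates 1, 2 and 3. Under TMM scaling the rule chose 108 clusters, 90 of them members, and with DESeq2 size factors 112, 95 of them members. The share of chosen clusters in which the left-out 2 mg/L replicate 3 lay above the other 9 libraries was 36.6% on FPKM and 53.0% with a mean CPM of at least 10. With that limit the summed level of members at 2 mg/L was 9507 CPM.

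Calls by edgeR were 0 in all 6 comparisons, against at most 0.0122% of all clusters tested. For 2 mg/L, DESeq2 called 10 members against the controls, 17 against 5 mg/L and 34 against 10 mg/L. Over all clusters tested it called 0.919%, 0.73% and 2.31% as higher. Set against the controls, it called 4 for 5 mg/L and 6 for 10 mg/L, and it called 3 at 10 against 5 mg/L. The shares over all clusters, higher and lower, were 0.908% and 0.85%, then 2.87% and 2.8%, then 1.45% and 1.82%. Limma-voom called 1 in each contrast of 2 mg/L, against 0.00525%, 0.007% and 0.00175% of all clusters called higher. Limma on log2(FPKM + 1) called 1, 2 and 2, against 0.0245%, 0.0315% and 0.0402%. Members were chosen by the contrasts of 2 mg/L, so nothing is read from the counts in them. Leaving out 1 library gave 0 to 1 calls at 2 against 10 mg/L and 0 to 0 in the other comparisons. The 1 call came without 10 mg/L replicate 3, where 60 clusters were called higher and 99 lower of 69180 tested. With all 12 libraries 3 clusters were called higher and 4 lower of 57151. The cause was not tested.

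The median log2 change at 10 mg/L against the controls was -0.71 to -0.44 over the other settings, and -0.73 to -0.35 with 1 library left out. Same-numbered libraries did not deviate together (18 correlations of -0.0606 to 0.0472), and with the replicate block 0 members were called in each comparison. With 3 libraries a group and the spread seen here, single-cluster changes are measured with little precision.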
